A study of Mus musculus with 3 samples.

Results

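The heat-shock chaperones of the cytosol and mitochondria were examined in adipose progenitor cells, together with their main regulators. The genes were taken by symbol: the 2 HSP90 alpha-class genes, the HSP70, HSP110, HSP60, HSP10 and small heat-shock genes whose symbols begin with Hspa, Hsph, Hspd, Hspe or Hspb, the Dnaja, Dnajb and Dnajc genes, and Hsf1, Hsf2 and Bag3. Another 15 RefSeq symbols of these patterns had no row in the table and were not analysed here. The endoplasmic reticulum genes Hspa5, Dnajb9, Dnajb11 and Dnajc3 were left out. This gave 71 genes of the 27179 in the table, 70 of them protein-coding and 1 a pseudogene (Dnajc19-ps). Despite the name of the set, Hspa13, Dnajb12, Dnajb14, Dnajc1 and Dnajc10 are also known from the endoplasmic reticulum, and the symbol rule keeps them.

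RNA was counted in 3 libraries of 1 group: cells of the stromal vascular fraction from epididymal fat of naïve wild-type male mice of strain C57B6, aged 12 weeks. The tissue was digested with Collagenase II, and live cells negative for CD45, CD31 and Ter119 and positive for CD140a, Sca1 and PDPN were sorted. There was no treatment, second genotype or undigested tissue, so every level below is a level after digestion and sorting. Fat was taken from 3 mice. Whether each library stands for 1 animal is not labelled, and both the spread and the p-values below may therefore be technical in part. In pooled cells, fewer cells carrying a transcript and less transcript per cell cannot be told apart.

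The libraries held 32813373, 25060096 and 27275888 counts. Levels are CPM, counts scaled to a common library size with TMM factors, and a count of 0 allows up to 0.0945, 0.119 and 0.107 CPM (3 counts), which covers counting error only. Genes of the sorted proteins were present: Pdgfra (CD140a) stood at 1501, 1476 and 1476 CPM, and summed Pdgfra, Ly6a and Pdpn lay between 4386 and 5197 CPM. Of the excluded ones, Pecam1 had 1 or 2 counts per library and Ptprc (CD45) 5.42, 15.8 and 7.68 CPM.

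Heat-shock proteins hold unfolded proteins and refold them with energy from ATP. HSP70 proteins bind short exposed stretches of a client, J-domain (DNAJ) proteins deliver the client and set off ATP hydrolysis, and HSP110 and BAG proteins release the nucleotide. HSP90 finishes the folding of kinases and steroid receptors, HSP60 with its lid HSP10 folds proteins inside mitochondria, and small heat-shock proteins hold clients without ATP. HSF1 switches on the inducible members through heat-shock elements in their promoters.

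Most chaperone genes were present in these cells. At 1 CPM or more in every library, here called detected, were 50 of the 71 genes, beside 35% of all genes and 43.7% of protein-coding genes. Another 11 genes fell below 1 CPM in 1 or 2 libraries and 10 in all 3. Detected chaperone genes had a median of 39.5 CPM, or 10.5 CPM per kilobase of exon, and all 9515 detected genes had 30.7 CPM and 6.55 CPM per kilobase. By class, detection reached 2 of 2 HSP90, 9 of 10 HSP70, 3 of 3 HSP110, 4 of 4 class A J-domain and 3 of 3 regulator genes, and both HSP60 and HSP10. It reached 4 of 8 small heat-shock, 5 of 11 class B and 18 of 28 class C J-domain genes.

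**Figure D1:**
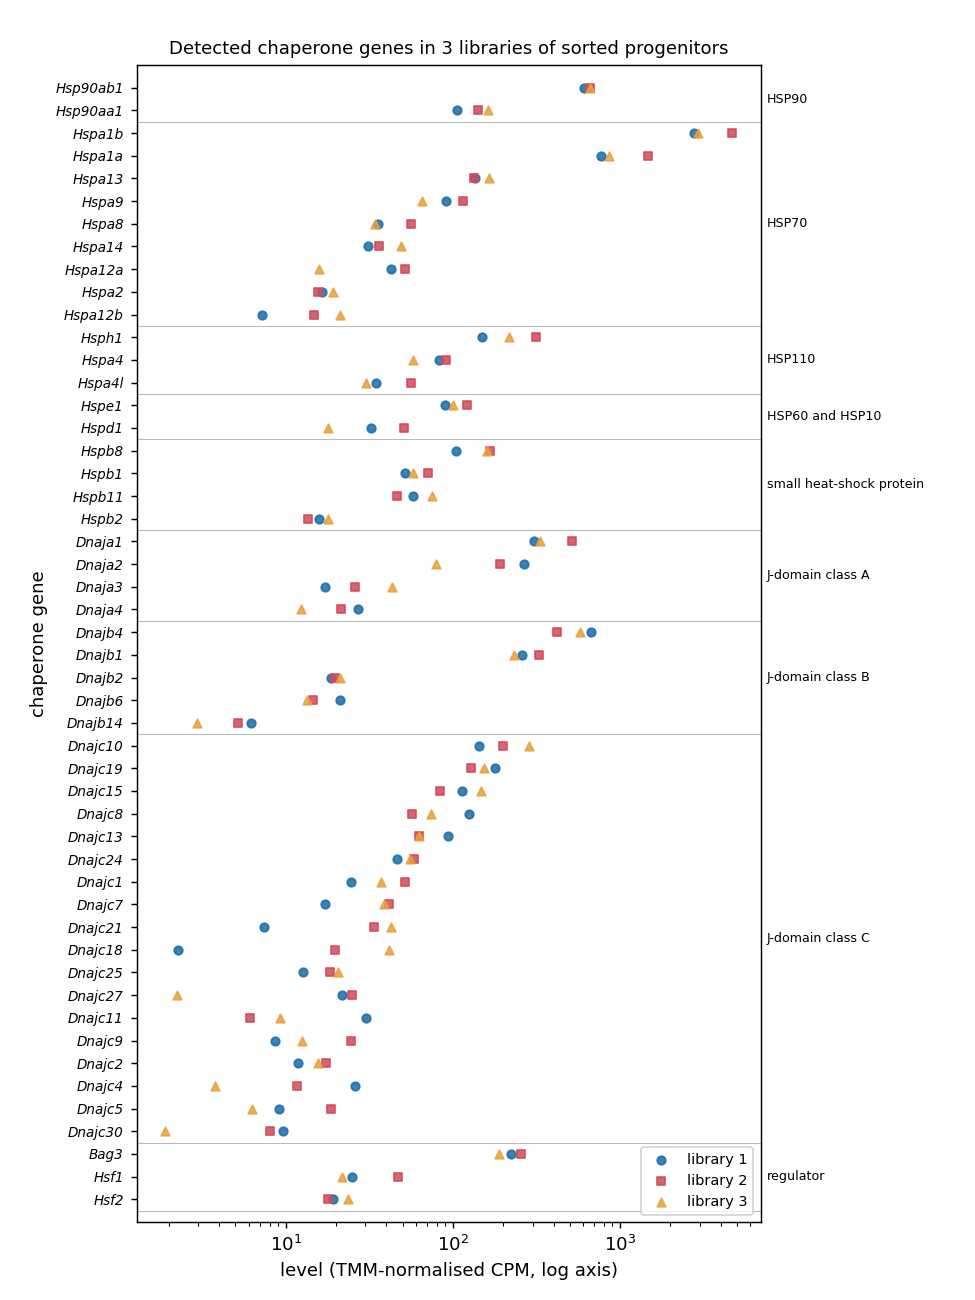
Level of the 50 detected chaperone genes in each library, in TMM-normalised CPM on a log axis, grouped by class, with 1 point per library. Hspa1b and Hspa1a lie far to the right in library 2, Hsp90ab1 is nearly the same in the 3 libraries, and class C J-domain genes such as Dnajc18 and Dnajc27 spread widely.

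The stress-inducible HSP70 genes dominated the counts of the family. Hspa1b stood at 2777, 4683 and 2922 CPM and was the 25th most abundant gene of the table by mean CPM. Hspa1a stood at 767, 1469 and 864 CPM. In both genes library 2 was the highest and libraries 1 and 3 lay close together. Together they held 44.4%, 55.6% and 45.7% of all CPM of the 71 genes. Other members, Hspa8 above all, share much sequence with other genes, and the part of this in these percentages was not tested. Per kilobase of exon their sum was 1583 ± 507 (SD, n = 3).

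These neighbours are near copies, so the split between them is uncertain. Hspa1b (gene 15511) lies on chromosome 17 from 34956429 to 34959238 and Hspa1a (gene 193740) from 34969359 to 34972156, both on the minus strand of GRCm38. Their coding sequences, of 1926 and 1923 bases, were 99.4% identical, with 8 mismatched and 3 gapped bases. Of all stretches of 50 bases in the Hspa1a transcript, 66.3% also occur in transcripts of other genes, and 62.3% for Hspa1b. The ratio of Hspa1b to Hspa1a counts was nonetheless similar in the libraries, at 3.62, 3.19 and 3.38. The authors' treatment of reads that map to both copies is not stated in the labels.

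The copies also share their promoters. The 250 bases before each start (RefSeq, GRCm38.p6) are shown because they carry the inducible gene pair with the highest chaperone level, with the pair of inverted heat-shock units, GAANNTTC, in capitals. The Hspa1a stretch is chr17:34972157-34972406 and the Hspa1b stretch chr17:34959239-34959488, both minus strand, written 5′ to 3′.
Hspa1a: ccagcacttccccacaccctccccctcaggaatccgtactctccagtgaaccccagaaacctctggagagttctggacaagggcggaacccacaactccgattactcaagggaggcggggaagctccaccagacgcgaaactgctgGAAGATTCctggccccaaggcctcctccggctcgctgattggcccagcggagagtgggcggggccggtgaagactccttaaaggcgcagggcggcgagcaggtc
Hspa1b: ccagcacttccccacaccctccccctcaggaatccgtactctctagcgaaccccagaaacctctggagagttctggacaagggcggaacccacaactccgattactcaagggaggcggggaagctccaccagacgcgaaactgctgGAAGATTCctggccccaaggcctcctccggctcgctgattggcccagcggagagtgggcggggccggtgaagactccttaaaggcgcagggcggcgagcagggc
The stretches differed at 3 of 250 bases, C44T, T47C and T249G, with the Hspa1a base given before the position and the Hspa1b base after it, counted from 1 at the 5′ end. None of these lies in the element.

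The constitutive HSP70 gene Hspa8, which encodes the everyday cytosolic HSC70, was counted at only 35.7, 55.9 and 34 CPM. Of its transcript's stretches of 50 bases, 74.8% recur in transcripts of other genes, the highest share among the 70 protein-coding genes, and 10 annotated pseudogenes match its coding sequence. The part of such sharing in the count was not tested. Some genes that nearly every cell uses were also near 0: Ubb and Ptges3 had at most 0.793 and 0.536 CPM in any library, with 61% and 22.2% of stretches shared. Per kilobase, Hspa8 differed from summed Hspa1a and Hspa1b by -7.32 ± 0.09 on the log2 scale.

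Other HSP70 genes were moderate. Hspa9, the mitochondrial HSP70 mortalin that also pulls proteins into the matrix, stood at 90.6, 115 and 65.8 CPM, highest in library 2. Hspa13, a microsome-associated relative, stood at 136, 134 and 165 CPM. Hspa14 (31, 36.3 and 48.9), Hspa12a (42.7, 51.8 and 15.9), Hspa2 (16.4, 15.6 and 19.3) and Hspa12b (7.25, 14.8 and 21 CPM) followed. Hspa1l, the testis-type gene beside Hspa1a, had 1.51, 0.872 and 0 CPM. Among the HSP110 genes, which exchange the nucleotide of HSP70, the inducible Hsph1 stood at 149, 315 and 216 CPM. Its constitutive relatives Hspa4 and Hspa4l had 82.1, 90.7 and 57.6 CPM and 34.6, 56 and 30.2 CPM. Library 2 was the highest for all 3 HSP110 genes.

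As counted, HSP90 showed the reverse order of inducible and constitutive forms. The constitutive Hsp90ab1 stood at 606, 657 and 664 CPM and the inducible Hsp90aa1 at 106, 142 and 161 CPM, so the genes did not overlap in any library. Hsp90ab1 varied little between libraries, with an SD of 0.07 on the log2 scale. Of Hsp90aa1 stretches, 58.5% recur in other genes, against 4.49% for Hsp90ab1, so the Hsp90aa1 count is the less certain. Hspa8 and Hsp90aa1, the forms counted lower, both share much sequence with other genes. The part of this in the order of forms in either family was not tested.

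The mitochondrial folding chamber was unequal in its parts. Hspe1, the HSP10 lid, stood at 89.4, 121 and 100 CPM and Hspd1, the HSP60 ring, at 32.2, 50.9 and 18 CPM. Library 2 was highest for both. They share 44.8% of stretches each with other genes, among them pseudogenes, of which 4 match each coding sequence. The genes overlap head to head on chromosome 1, Hspd1 from 55077833 to 55088243 on the minus strand and Hspe1 from 55088148 to 55091317 on the plus strand. Of 8 genes listed as mitochondrial, with earlier results of these data known, 8 were detected, beside 43.7% of protein-coding genes. The list may leave out other mitochondrial members. Dnajc19 (178, 129 and 154 CPM) and Dnajc15 (113, 83.6 and 147 CPM), J-domain partners of the import motor, were lowest in library 2. Dnaja3, partner of Hspa9, stood at 17.3, 25.9 and 43.3 CPM, Dnajc11 at 30.4, 6.14 and 9.29 and Dnajc30 at 9.67, 8.04 and 1.89.

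Small heat-shock genes fell into a present and a nearly absent group. Hspb8, which works with Bag3 in clearing misfolded protein, stood at 105, 168 and 160 CPM, Hspb1 (HSP25) at 52, 70.9 and 57.5 and Hspb11, an intraflagellar transport protein, at 58, 46.3 and 74.9. Hspb2 stood at 15.8, 13.6 and 17.9 CPM. Its neighbour Cryab, a small heat-shock gene outside the symbol rule, stood at 635, 502 and 390 CPM, and 28% of Hspb2 stretches lie in Cryab transcripts. Of 4 genes listed as muscle-linked, 1 was detected, Hspb2. Hspb6 (1.54, 0.0396 and 0.464 CPM), Hspb7 (0, 0 and 5.46 CPM) and Hspb3 were not. Hspb3 and Hspb9 had 2 counts each, in library 1. Markers of skeletal muscle summed to 0.107 to 2.85 CPM with 0 of 6 detected, and mural markers to 11 to 24.2 CPM with 1 of 7 detected, with Rgs5 at 0 counts. Their part in these levels was not tested.

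J-domain genes were led by cytosolic ones. Dnajb4, a class B partner of HSP70, stood at 671, 421 and 579 CPM and was lowest in library 2. Dnaja1, a class A partner that is farnesylated, stood at 305, 514 and 332 CPM and Dnajb1 (HSP40), the classical inducible partner, at 260, 327 and 233 CPM, both highest in library 2. Dnaja2 stood at 267, 192 and 79.4 CPM, with library 3 far below the others. Dnaja4, of whose stretches 51.9% recur in transcripts of Wdr61, had 27.2, 21.4 and 12.4 CPM. Dnajb2 (18.8, 19.8 and 21.1 CPM) hardly varied, and Dnajb6, of whose stretches 42.8% recur in other genes, stood at 21.2, 14.6 and 13.5 CPM. Dnajb14 was the lowest detected class B gene, at 6.17, 5.15 and 2.96 CPM.

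Class C members, which are joined only by the J domain, had varied roles and levels. Dnajc10, a disulfide reductase of the endoplasmic reticulum, led at 144, 200 and 286 CPM. Dnajc8, a splicing-associated protein, stood at 126, 56.9 and 74.2 CPM, Dnajc13, an endosomal protein, at 93.1, 62.6 and 62.8 CPM and Dnajc24, of the diphthamide pathway, at 46.3, 58.5 and 55.6 CPM. Dnajc1 (24.6, 52 and 37.4 CPM) and Dnajc7 (17.2, 41.6 and 38.6 CPM) were lowest in library 1. The genes that differed most between libraries among those detected were Dnajc18 (2.27, 19.8 and 41.5 CPM) and Dnajc27 (21.8, 25 and 2.25 CPM), with SDs of 2.03 and 1.8 on the log2 scale. Both of these were named after their values were seen. Dnajc21, of ribosome assembly, stood at 7.40, 33.8 and 42.5 CPM, lowest in library 1. The remaining detected class C genes, Dnajc25, Dnajc9, Dnajc2, Dnajc4 and Dnajc5, had means of 17.3, 15.2, 15, 13.9 and 11.4 CPM.

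Genes known mainly from testis had few or no counts, apart from Dnajb3. Of 8 listed for that tissue, 0 were detected: Dnajc5b and Dnajc5g had 0 counts in every library, Dnajb7, Dnajb8, Dnajb13 and Hspb9 had 2 or 3 counts in all, and Hspa1l is given above. Dnajb3 had 0, 6.9 and 5.75 CPM. Of stretches, 71.4% of Hspa1l and 50.8% of Dnajb8 recur in other genes, so their low counts are uncertain. Markers of testis and epididymis summed to 0.634 to 0.693 CPM, with 0 of 8 detected. Other genes below detection were Dnajc14, Dnajc16, Dnajc17, Dnajc28, Dnajc12, Dnajb5, Dnajb12, Dnajc6, Dnajc22 and the pseudogene Dnajc19-ps. The neuronal clathrin-uncoating gene Dnajc6 and Dnajc22 had 3 counts and 1 count in all.

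Among regulators, Bag3, which couples HSP70 to Hspb8 and to autophagy, was far more abundant than the transcription factors. It stood at 221, 254 and 189 CPM. Hsf1, the main driver of the heat-shock response, stood at 25.1, 47 and 21.7 CPM and Hsf2 at 19.1, 17.9 and 23.7 CPM. Hsf1 was highest in library 2 and Hsf2 lowest there. Of the other HSF genes, Hsf3 had 0 counts, and Hsf4 and Hsf5 were not detected. Hsbp1, which encodes an HSF-binding protein, stood at 1051, 869 and 943 CPM.

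Within each library, 8 pairs of paralogs or partners were compared per kilobase of exon, on the scale of log2 (CPM + 0.5). Hsp90ab1 exceeded Hsp90aa1 by 2.64 ± 0.24 (SD, n = 3) and Hspe1 exceeded Hspd1 by 2.56 ± 0.64. Hsf1 exceeded Hsf2 by 0.98 ± 0.76, or 0.57 without replicate 2. Without length correction that difference was 0.54, and in library 3 Hsf1 was then below Hsf2. The inducible Hsph1 was above Hspa4, with Hspa4 minus Hsph1 at -1.12 ± 0.57. Mitochondrial Hspa9 was counted above Hspa8, with Hspa8 minus Hspa9 at -1.10 ± 0.20. Of Hspa8 stretches 74.8% recur in other genes, against 4.1% for Hspa9. The counts of Hsp90aa1, Hspd1, Hspe1 and Hspb1 are also uncertain through shared sequence. The part of such sharing in the pair differences was not tested. Hspb1 minus Hspb8 was -0.32 ± 0.24, but -1.24 without length correction and -0.20 without replicate 3. Dnaja1 minus Dnajb1 was -0.96 ± 0.21, and it turned to 0.47 without length correction, so that order rests on the exon lengths used. With length correction, each of the 8 differences had 1 sign in 3 of 3 libraries, but 3 libraries allow no smaller two-sided p than 0.25 in the exact sign-flip permutation test (p = 0.25 and adjusted p = 0.25 for every pair), so none could pass 0.05.

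**Figure D2:**
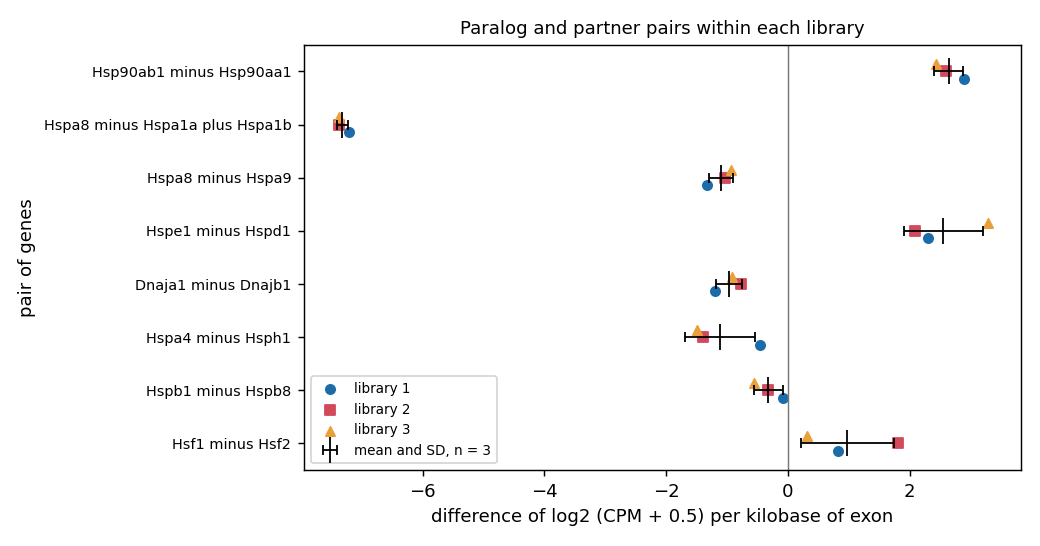
Difference of log2 (CPM + 0.5) per kilobase of exon between paired genes in each library (points), with the mean and SD over 3 libraries (black). The points of each pair lie on 1 side of 0, and Hspa8 minus summed Hspa1a and Hspa1b averages -7.32.

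Heat-shock elements were read in the RefSeq promoter windows of GRCm38.p6, from 250 bases before to 50 after each start. Windows existed for 55 of the 71 genes, 72 windows in all, but not for Hspa8, Hspa9, Hsp90aa1, Hsp90ab1 or Hsf1. The 3-unit elements are GAANNTTC followed by NNGAA, or TTCNNGAA followed by NNTTC, searched on both strands. They were in 6 of 72 windows (8.33%), belonging to Hspd1, Hspe1, Hsph1 and Dnajb6. Over all genes they were in 0.603% of 32851 windows, and in 0.556% of windows of detected protein-coding genes. These windows are not separate observations. For Hsph1 and for Dnajb6 the same element is read from different starts, and the Hspd1 and Hspe1 matches overlap. By gene, 4 of 55 held a 3-unit element (7.27%), beside 0.662% of all genes with a window. The 2-unit elements GAANNTTC and TTCNNGAA, each its own reverse complement and contained in the 3-unit ones, were in 19 of 72 windows (26.4%) beside 15.1% of all windows. By gene, 17 of 55 held a 2-unit element (30.9%), beside 17% of all genes with a window. A match is a description of the letters, and binding was not measured.

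The stretches of 30 bases below carry these elements, in capitals, for 7 inducible genes whose library values are compared next and for Dnajb6, a class B gene outside the inducible list that holds a 3-unit element. They are written 5′ to 3′ on the strand of the gene.
Hspe1 (chr1:55088051-55088080, plus): acggtccgTTCTAGAACCTTCcggaaggcc
Hspd1 (chr1:55088055-55088084, minus): gcggggccTTCCGGAAGGTTCtagaacgga
Hsph1 (chr5:149636279-149636308, minus): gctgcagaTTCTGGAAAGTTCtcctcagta
Dnajb6 (chr5:29735844-29735873, plus): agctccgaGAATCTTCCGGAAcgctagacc
Dnaja1 (chr4:40722333-40722362, plus): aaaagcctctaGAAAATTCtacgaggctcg
Hspb1 (chr5:135887791-135887820, plus): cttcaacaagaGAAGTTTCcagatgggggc
Hspb8 (chr5:116422844-116422873, minus): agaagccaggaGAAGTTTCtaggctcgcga
Bag3 (chr7:128523603-128523632, plus): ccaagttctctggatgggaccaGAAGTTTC
The Hspe1 and Hspd1 stretches overlap and are read from opposite strands, but their capitals mark different elements that overlap only in part. The element marked for Hspd1, read from the other strand, is the second match of Hspe1. Counting the start base as 0, the Hspe1 element began at -89, the Dnaja1 element at -124 and the Hspb1 element at -117, while those of Hspb8 and Bag3 began at 2 and 42, inside the transcript. The Hsph1 element began at 15 or 36, depending on which annotated start is used. Hspe1, Hspd1 and Hspb1 each hold a second match that is not marked on their own line. No element of either kind was found in the Dnajb1 windows.

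Most chaperones listed as inducible were highest in library 2. Of 11 genes listed as heat-inducible, with earlier results of these data known, Hspa1a, Hspa1b, Hspb1, Hspb8, Hsph1, Dnajb1, Dnaja1, Hspd1, Hspe1 and Bag3 (10) were highest in library 2, and Hsp90aa1 in library 3. Over the 13289 genes with 10 counts or more in at least 1 library, 32.7% were highest in library 2, and among genes of mean 50 CPM or more 31.4%. The level in library 2 over the mean of the other libraries was 1.8-fold for Hspa1a, 1.73-fold for Hsph1, 1.64-fold for Hspa1b, 1.61-fold for Dnaja1 and 2.03-fold for Hspd1. It was 1.33-fold for Dnajb1, 1.3-fold for Hspb1, 1.28-fold for Hspe1, 1.27-fold for Hspb8, 1.24-fold for Bag3 and 1.06-fold for Hsp90aa1. Genes outside the inducible list went both ways. Hspa8, Hsf1, Hspa12a and Hspa4l gave 1.6-fold, 2.01-fold, 1.77-fold and 1.73-fold. Dnajb4, which holds a 2-unit element, gave 0.674-fold and Dnajc15 0.642-fold. The count depends on which genes the list holds, and the list may leave out other inducible genes. Hspb8 was nearly as high in library 3 (160 CPM) as in library 2 (168 CPM). Of 3 tested genes on a list of other heat-shock targets, Serpinh1 and Cryab were highest in library 1 and Ubb, near 0, in library 2. The inducible genes share regulation and, for Hspa1a and Hspa1b, sequence, so they are not separate observations.

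**Figure D3:**
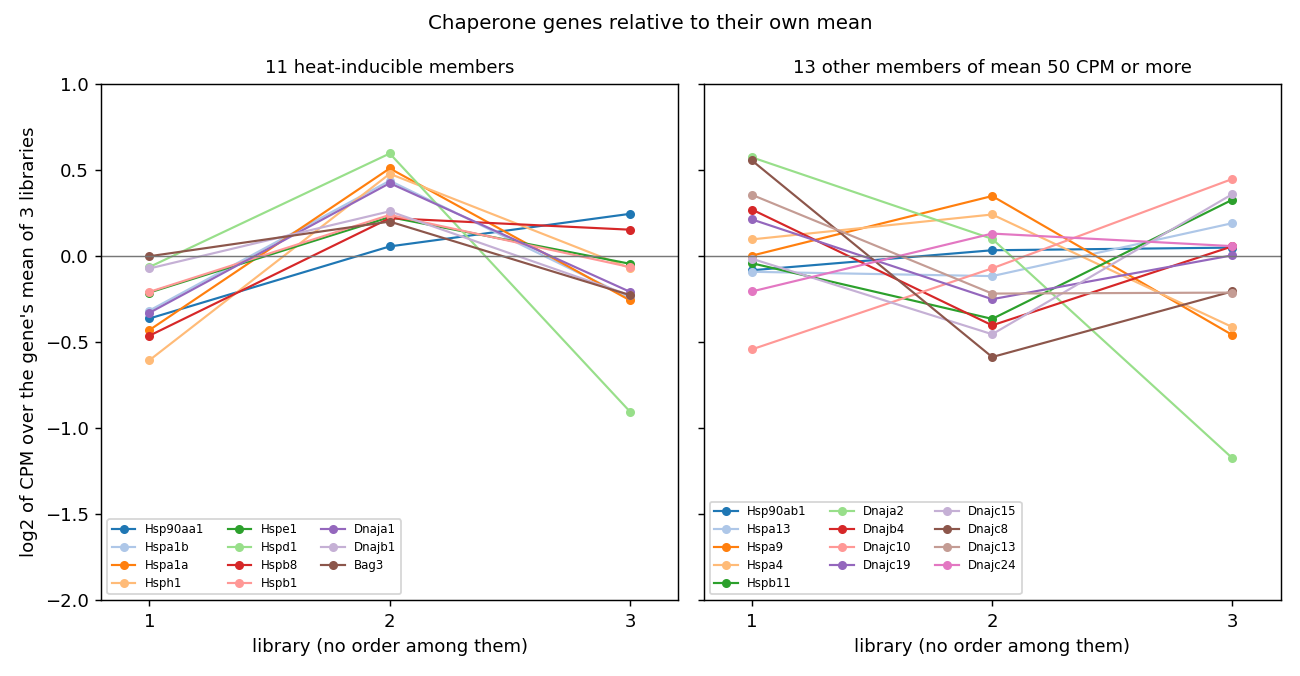
Log2 of each gene's CPM over its own mean of 3 libraries, for the 11 heat-inducible genes (left) and the 13 other chaperone genes of mean 50 CPM or more (right). The libraries have no order, and lines only join the points of a gene. On the left 10 genes peak in library 2, while on the right the peaks fall in all 3 libraries.

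The peaks of the whole family were spread over the libraries. Of 62 tested genes, 15 were highest in library 1, 29 in library 2 and 18 in library 3, beside 33.9%, 32.7% and 33.4% of all tested genes. Of the 23 with a mean of 50 CPM or more, 5, 12 and 6 were highest in libraries 1, 2 and 3, beside 36.8%, 31.4% and 31.7% of all genes at that level. By promoter, 10 of 15 tested genes with a 2-unit element were highest in library 2, and 13 of 33 with a window but no such element. Of these 10, all but Dnajc27 are in the inducible list, so the counts mostly repeat it. The other tested genes with the element peaked elsewhere: Dnaja4, Dnajb4, Dnajb6 and Hspb6 in library 1 and Dnajc10 in library 3. The median SD on the log2 scale was 0.37 for the inducible genes, 0.40 for the 48 chaperone genes of mean 10 CPM or more and 0.45 for all 7948 genes of that level.

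The contrasts of 1 library with the others leave 1 residual degree of freedom, and their lack of calls says nothing about whether chaperone genes differed. With edgeR's quasi-likelihood test and Benjamini-Hochberg adjustment over 13289 genes, 0 of 62 were called in library 1, 2 or 3, beside 0% of all genes each time. At an unadjusted p under 0.05 there were 3 in each contrast, beside 3.78%, 4.88% and 5.24% of all genes. For library 2 these were Hspa1a (log2 difference 0.84, adjusted p = 0.98), Hspa1b (0.71, adjusted p = 0.98) and Dnajc14. For library 1 they were Dnajb3, Dnajc21 and Dnajc18, and for library 3 Hspb7, Dnaja2 and Dnajc27. DESeq2's Wald test called 1, 0 and 1 of 62: Dnajc18 in library 1 and Dnaja2 in library 3, beside 0.903%, 1.44% and 1.43% of all genes. At an unadjusted p under 0.05 DESeq2 gave 6, 5 and 5 of 62, beside 7.86%, 8.74% and 9.81% of all genes. The lone library is assumed to vary as the other libraries do, and the higher inducible values of library 2 are a description.

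Other features of library 2 are given beside it. It had the fewest counts. Leukocyte Ptprc was highest there, at 15.8 against 5.42 and 7.68 CPM. The sum of 8 macrophage and monocyte markers was also highest there, at 1.04, 2.26 and 0.179 CPM, with Csf1r at 0.063, 2.18 and 0.143 CPM. The sum of 8 lymphocyte markers was 0.0945 to 0.143 CPM, and 0 markers of either list were detected. Markers of mature adipocytes summed to 3.21, 9.47 and 2.11 CPM (0 of 6 detected), of skeletal muscle to 0.945, 2.85 and 0.107 CPM, and those of endothelium to at most 0.393 CPM (0 of 7). Erythroid and mesothelial markers summed to at most 3.15 and 0.504 CPM, with 0 of 5 and 0 of 6 detected. The part of depth or of other cells in the chaperone values was not tested.

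Partner genes of the pathway were detected almost throughout, beside 43.7% of all protein-coding genes. HSP70 co-chaperones were detected in 8 of 8 cases, led by Bag5 (52, 94.3 and 72.6 CPM) and Bag1 (58.3, 31.2 and 68.3 CPM). HSP90 co-chaperones reached 11 of 12, led by Chordc1 (76.6, 76 and 40.3 CPM) and Ppid (85.9, 66.3 and 40.7 CPM), and mitochondrial partners 8 of 9, led by the unfoldase Clpx (73.3, 83 and 74.8 CPM) and the nucleotide exchange factor Grpel1 (88, 55.6 and 69.2 CPM). The CCT chaperonin, which folds actin and tubulin, was detected in 8 of 8 subunits, led by Cct5 (239, 168 and 244 CPM), and prefoldin, which feeds it, in 6 of 6, led by Pfdn5 (162, 267 and 282 CPM). Library 2 was the highest for 4 of 8 HSP70 co-chaperones, 2 of 12 HSP90 co-chaperones and 3 of 9 mitochondrial partners. It was the highest for 1 of 8 CCT and 2 of 6 prefoldin genes, beside 32.7% of all tested genes.

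Among other genes known to respond to heat, Serpinh1 (HSP47, the collagen chaperone) stood at 169, 132 and 133 CPM and, like Cryab, was highest in library 1. Chaperones of the endoplasmic reticulum were detected in 14 of 14 cases, with 3 of 14 highest in library 2, among them Hspa5 (BiP) at 1958, 3045 and 2269 CPM. Immediate-early genes, which respond within minutes to handling or signalling, were detected in 11 of 11 cases, led by Fos at 5932, 6908 and 6884 CPM and Egr1 at 2777, 2912 and 3170 CPM, and 2 of 11 were highest in library 2. Beside these counts, 43.7% of protein-coding genes were detected and 32.7% of all tested genes were highest in library 2. These lists were not tested against the inducible chaperones.

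**Figure D4:**
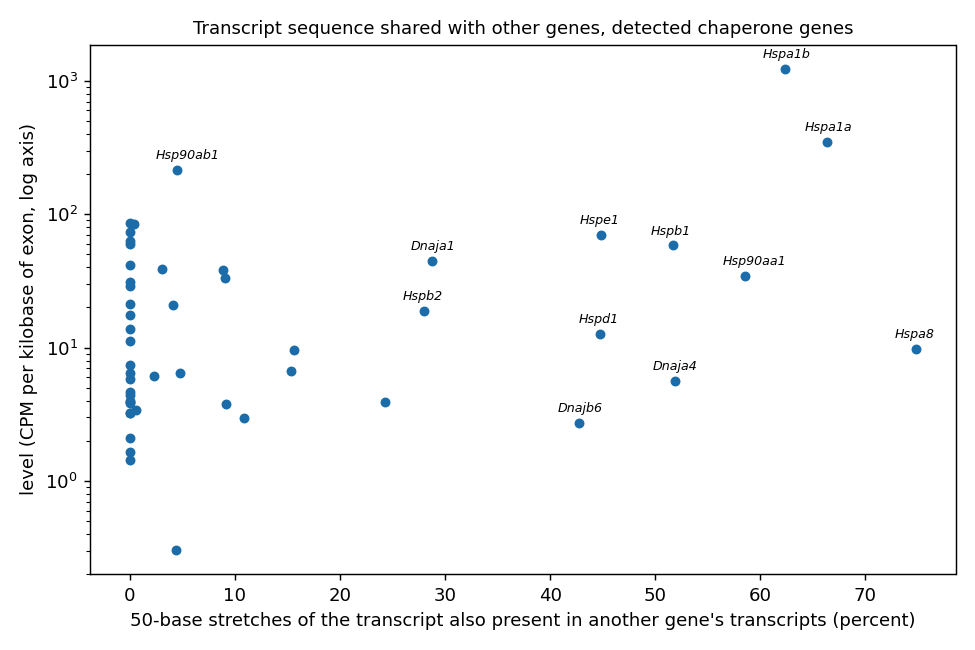
Level of the 50 detected chaperone genes (mean CPM per kilobase of exon, log axis) against the percentage of stretches of 50 bases in the longest protein-coding transcript that also occur in transcripts of other annotated genes. Hspa8 has the highest share at 74.8%, and Hspa1a and Hspa1b combine high shares with the highest levels.

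Shared sequence touched the best-known members. In 11 of the 70 protein-coding genes at least 40% of stretches recur in other genes, and in 35 none does. Dnajb1 at 0.441% and Bag3, Hspb8, Hsph1 and Dnajb4 at 0% are inducible or abundant genes whose counts are nearly or wholly free of this limit, while Hspb1 (51.7%), Dnaja1 (28.8%), Hspe1 and Hspd1 are not. Of the 10 inducible genes highest in library 2, Hsph1, Dnajb1, Hspb8 and Bag3, which share little or nothing, gave 1.73-fold, 1.33-fold, 1.27-fold and 1.24-fold.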

How the data were processed

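Sorted cells gave 3 RNA libraries, which per the labels' protocols used Clontech's SMARTer kit for ultra low input (V4). The authors deposited raw counts, whole numbers for each NCBI gene ID. CASAVA 1.8.2, STAR 2.3.0 and mm10 are named by the submitters' processing notes, while the counter, annotation, strandedness and handling of multiply mapped reads were not given in the sources used here. Symbols came from RefSeq (GRCm38.p6), which matched 25275 of 27179 IDs, and exon lengths from GENCODE M21 (70 of 71 genes). CPM used TMM factors (edgeR 4.0.16, R 4.3.3). Detection meant 1 CPM or more in every library. Each library was set against the others with edgeR's quasi-likelihood test, called at adjusted p below 0.05. Run on simulated counts for library 1, it missed many moderate changes, and unchanged genes made up more of its calls than the threshold allows for. DESeq2 1.42.0 was the alternative. Shared sequence was read from GENCODE M21 transcripts as exact stretches of 50 bases, with candidates from BLAST 2.17.0. Pseudogenes were counted at 90% identity over 50% of the coding sequence. Python 3.11.15 was used.

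Members and lists were chosen with earlier results of these data known. The naming rule allowed every member, with values in each library for those of mean 50 CPM or more, the 8 pairs, the regulators and called genes. Members at 0 counts were named, and up to 2 genes of highest mean from each other list. Lower members and other-list genes given with values beyond this (such as Dnaja3, Dnajc1, Ubb and Hspa5) were chosen after their values were seen.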

Additional observations from a re-analysis of the deposited data

How the results depend on the processing

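The labels give 1 group. No paired analysis was possible because there is no second group sharing replicate numbers. The count of detected chaperone genes ranged from 45 at 5 CPM to 61 at 1 CPM in at least 1 library, against 50, and from 50 to 52 with 1 library left out. Their median of 39.5 CPM became 10.5 per kilobase of exon, a change of unit, and ranged from 33.6 to 45.3 with 1 library left out. Dnaja1 minus Dnajb1 reversed to 0.47 without length correction and was -0.44 with the longest transcript. With 1 library left out it ranged from -1.06 to -0.85, and the mean of each other pair kept its sign under every alternative run. Hsf1 minus Hsf2 without length correction was 0.54 with library 3 of the opposite sign. DESeq2's Wald test called 1 chaperone gene in library 1 and 1 in library 3, and the other edgeR settings called 0. Leaving out a library in that test was not run, because 1 against 1 leaves no residual degrees of freedom. The counts by highest library, 15, 29, 18 and 10 of 11, were the same with DESeq2 size factors and with total counts. The count of inducible genes highest in library 2 and the median spread, with their alternatives, were added after the data were seen. At this depth a count of 0 allows up to 3 counts, 0.0945 to 0.119 CPM, so it does not show absence.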
